A study of Mus musculus with 6 samples.

Results

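The lens capsule is the basement membrane that encloses the lens, and the genes described here encode the matrix proteins that build such membranes, the interstitial and fibrillar matrix, and the receptors through which cells hold on to it. They were chosen by gene symbol, as collagens, laminin chains, nidogens, perlecan, agrin, fibronectin, tenascin C, fibrillins, SPARC and SMOC proteins, peroxidasin, integrin subunits, dystroglycan and integrin-linked kinase. The symbols and classes were set with earlier results of these data known, and the authors had already reported Sparc and Pxdn as reduced. The symbols matched 85 of the 13931 genes in the deposited table. By role they comprised 29 basement membrane genes, 32 fibrillar and interstitial matrix genes, and 21 receptor genes, the last including the kinase Ilk. The remaining 3, Itgb1bp1, Itgb1bp2 and Itgb3bp, match by name only and encode binding partners of integrin tails rather than receptors. All 6 collagen IV chains and 11 laminin chains were in the table, while 7 interstitial collagens and 3 integrin beta chains of the same families, among them Col12a1 and Itgb6, were not analysed here.

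RNA-seq was performed on whole lenses of newborn mice (P0, the day of birth) of mixed C57BL/6J and FVB background, with 3 Control and 3 Celf1cKO libraries, each from a separate pool of 2 lenses. Celf1cKO mice carried a germline knockout allele of Celf1 (Celf1lacZKI), a floxed allele (Celf1flox, exon 5 between loxP sites) and the transgene Pax6GFPCre, which expresses Cre from the lens placode onward and is also active in the pancreatic lineage. The labels give the Control lenses as Celf1lacZKI/+, so that both groups would share the germline knockout allele. The methods, however, name Celf1flox mice without Cre as the usual controls, and the genotype of the Control lenses is therefore not settled, which bears on each comparison here. CELF1 is an RNA-binding protein that controls the decay, splicing and translation of its target transcripts. The comparison asks how transcript levels differ when Celf1 is reduced, but not absent, in the lens. The authors report that the deletion was incomplete, with the floxed exon still present in part of the transcripts.

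Values are log2 CPM (the log2 of read counts scaled to library size, after the normalization of the authors), and a difference is the log2 fold-change, Celf1cKO minus Control. A gene was called reduced or elevated when its adjusted p was under 0.05 in limma, with Benjamini-Hochberg adjustment over all 13931 genes, its log2 fold-change exceeded 0.58 in that direction, and its mean log2 CPM over the 6 libraries was above 1. Summed over these 13931 genes, the reads recovered from the deposited values came to 40694454 to 44387151 per library. Celf1 itself stood at 9.95, 9.94 and 9.34 in Control and at 8.93, 7.66 and 7.83 in Celf1cKO lenses, and was reduced by -1.60 (SE 0.335, limma adjusted p = 0.0269). Transcripts of lens markers were abundant in each library, with a sum of 210220 to 230140 CPM in Control and 151920 to 166300 CPM in Celf1cKO lenses over Cryaa, Cryab, Crygd, Bfsp1, Bfsp2 and Mip. Library Celf1cKO 2 stood apart from the other Celf1cKO libraries for many of the genes described below, and 1010 genes (9.59% of the 10529 with mean log2 CPM above 1) were called in all.

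In a basement membrane, laminin trimers form a first network on the cell surface and collagen IV trimers a second, cross-linked one. Nidogens and the proteoglycan perlecan bridge both networks. Collagen IV trimers are built from a few fixed chain combinations, with the Col4a1 and Col4a2 products forming the trimer found in most basement membranes, and the products of the other 4 genes forming trimers that are restricted to certain tissues, among them the lens capsule and the kidney glomerulus. Cells bind these networks mainly through laminin-binding integrins and dystroglycan.

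The 6 collagen IV genes lie in 3 head-to-head pairs, each pair transcribed in opposite directions from a shared stretch of DNA, and their transcript levels are described pair by pair. On GRCm38, the first exons of Col4a1 (minus strand, gene start at position 11312826 of chromosome 8) and Col4a2 (plus strand, 11312805) overlap by 22 bases. Col4a4 and Col4a3 on chromosome 1 start at 82586849 and 82586921 with 71 bases between them, and Col4a6 and Col4a5 on chromosome X start at 141474076 and 141475385 with 1308 bases between them. The sequences just upstream of the starts are shown for these last pairs. A stretch of Pxdn, a reduced gene whose product cross-links collagen IV, is shown with them, and although it precedes a RefSeq start it lies downstream of the GENCODE gene start at 29937608, outside annotated exons. The sequences are from RefSeq promoter windows on GRCm38.p6 without exon bases, and each is written in the direction of the named gene. Capitals mark the GC box GGGCGG and the CCAAT box, each searched on both strands.
Col4a4 (chr1:82586850-82586920, minus strand, the whole stretch between Col4a4 and Col4a3): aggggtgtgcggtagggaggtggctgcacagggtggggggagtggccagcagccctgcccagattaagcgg
Col4a6 (chrX:141474077-141474326, minus strand): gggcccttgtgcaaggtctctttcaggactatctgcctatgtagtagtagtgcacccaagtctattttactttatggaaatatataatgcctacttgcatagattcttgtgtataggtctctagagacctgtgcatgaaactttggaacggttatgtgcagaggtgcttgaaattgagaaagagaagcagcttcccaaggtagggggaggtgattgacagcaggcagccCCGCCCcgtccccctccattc
Col4a5 (chrX:141475169-141475384, plus strand): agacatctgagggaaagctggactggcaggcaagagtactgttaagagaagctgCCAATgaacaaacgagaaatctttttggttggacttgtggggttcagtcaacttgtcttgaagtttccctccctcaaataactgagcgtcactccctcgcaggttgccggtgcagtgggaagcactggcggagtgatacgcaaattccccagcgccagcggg
Pxdn (chr12:29937786-29938035, plus strand): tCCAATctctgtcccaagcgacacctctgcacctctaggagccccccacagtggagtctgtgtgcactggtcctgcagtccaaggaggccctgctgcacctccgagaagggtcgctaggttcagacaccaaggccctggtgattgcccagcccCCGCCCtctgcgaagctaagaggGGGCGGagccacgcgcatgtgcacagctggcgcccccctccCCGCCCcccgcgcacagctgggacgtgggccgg

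The Pxdn stretch held 3 GC boxes and 1 CCAAT box, the Col4a6 stretch 1 GC box, the Col4a5 stretch 1 CCAAT box, and the 71 bases between Col4a4 and Col4a3 neither. Promoter windows of 300 bases were found for 59 of the 85 genes, 68 windows in all. GGGCGG occurred in 63.2% of these windows and in 35.7% of all 32851 windows in the RefSeq table, while CCAAT occurred in 27.9% and 37.4%. TATAAA was found in 8.82% against 13.6%, the AP-1 motif TGANTCA in 4.41% against 7.81%, and the Maf half-site TGCTGA in 13.2% against 19.5%. The windows of the matrix and receptor genes also had a higher median GC content, at 60.5% against 52.7%, and a letter match in such a window describes the sequence and not a bound site.

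Col4a3 and Col4a4 were the most reduced of the basement membrane genes, Col4a1 and Col4a2 lay lower in Celf1cKO lenses without passing the test, and Col4a5 and Col4a6 lay slightly higher. Col4a3 measured 6.21, 5.90 and 6.87 log2 CPM in Control and 5.45, 4.06 and 3.79 in Celf1cKO lenses. Its partner Col4a4 measured 6.73, 6.69 and 7.52 in Control and 6.10, 4.65 and 4.63 in Celf1cKO lenses. For both genes each Celf1cKO library was below each Control library, and library Celf1cKO 1 lay nearest to Control. Col4a3 was reduced by -1.89 (SE 0.441, adjusted p = 0.0363 in limma), leaving 26.9% of the Control level, and Col4a4 by -1.85 (SE 0.418, adjusted p = 0.0335 in limma), leaving 27.7%. Of the exon bases of Col4a3, 5.65% overlap an annotated antisense gene, and whether strand was used in the counting is not given in the sources used here.

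Col4a1 measured 11.69, 11.61 and 11.53 in Control and 11.43, 10.94 and 11.04 in Celf1cKO lenses. For Col4a2 the values were 11.34, 11.25 and 11.24 against 11.13, 10.71 and 10.84. In both genes the groups did not overlap, but neither passed the test. The log2 fold-change was -0.47 for Col4a1 (95% interval -0.82 to -0.12, limma adjusted p = 0.083) and -0.38 for Col4a2 (-0.69 to -0.07, limma adjusted p = 0.103). Col4a5 stood at 8.79, 8.73 and 8.63 in Control and at 8.96, 8.94 and 8.94 in Celf1cKO lenses, and Col4a6 at 8.40, 8.45 and 8.22 against 8.54, 8.53 and 8.46. Here the Celf1cKO libraries were the higher ones in each case, although not by a called difference. Col4a5 differed by 0.23 (95% interval 0.05 to 0.42, limma adjusted p = 0.0979) and Col4a6 by 0.15 (-0.05 to 0.36, limma adjusted p = 0.28). Scaled by total reads, which raised the median log2 fold-change of all genes from 0.006 to 0.23, both passed on the adjusted p, with 0.46 for Col4a5 (limma adjusted p = 0.00747) and 0.38 for Col4a6 (0.0122), still short of 0.58.

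**Figure D1:**
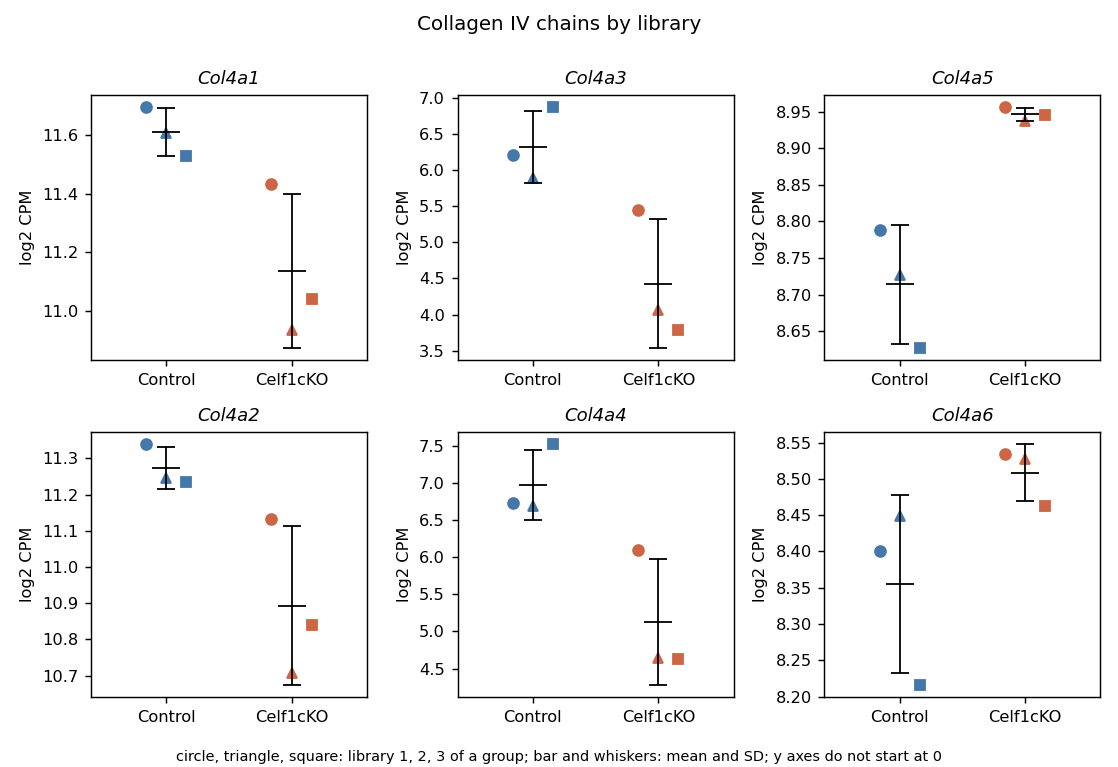
Log2 CPM of the 6 collagen IV genes in each library (circle, triangle and square for libraries 1, 2 and 3 of a group), with the group mean and SD as bar and whiskers. Each column of panels is a head-to-head gene pair, and within a pair both genes show the same pattern, with Col4a3 at 5.45, 4.06 and 3.79 in Celf1cKO lenses below the lowest Control value of 5.90, and Col4a5 above Control in each Celf1cKO library.

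Partners of a pair kept nearly the same ratio to each other in both groups. The log2 difference in CPM between Col4a3 and Col4a4 averaged -0.66 ± 0.14 (SD, n = 3) in Control and -0.70 ± 0.13 in Celf1cKO lenses. Between Col4a5 and Col4a6 it averaged 0.36 ± 0.07 and 0.44 ± 0.04, and between Col4a1 and Col4a2 0.34 ± 0.04 and 0.24 ± 0.05. The pairs, in contrast, shifted relative to one another. On a scale of CPM per kb of exon, which allows levels to be compared between genes, collagen IV transcripts summed to 918 ± 39.0 in Control and 720 ± 107 in Celf1cKO lenses (SD, n = 3). Col4a1 and Col4a2 made up 86.4% ± 0.54 of this sum in Control and 82.4% ± 1.87 in Celf1cKO lenses. The share of Col4a3 and Col4a4 was 2.27% ± 0.88 against 0.82% ± 0.41, and that of Col4a5 and Col4a6 11.3% ± 0.47 against 16.8% ± 2.23. None of these 3 shares overlapped between the groups. Per kb, there were 8.15 ± 2.85 Col4a5 transcripts for each Col4a3 transcript in Control and 38.0 ± 18.8 in Celf1cKO lenses, with single libraries from 5.01 to 10.6 and from 16.9 to 53.2. These ratios are descriptions, and no test was run on them.

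The other called basement membrane genes, Sparc and Pxdn, act on collagen IV. SPARC is a matricellular glycoprotein that binds collagen IV and is needed for an intact lens capsule. Sparc transcripts measured 10.73, 10.82 and 10.53 log2 CPM in Control and 10.11, 9.59 and 9.72 in Celf1cKO lenses, so that the groups were well apart. Sparc was reduced by -0.89 (SE 0.152, limma adjusted p = 0.0162), to 54.1% of Control. Peroxidasin, the product of Pxdn, forms the sulfilimine bonds between collagen IV trimers. Pxdn measured 8.88, 8.96 and 8.63 in Control and 8.41, 7.89 and 8.14 in Celf1cKO lenses, again without overlap, and was reduced by -0.68 (SE 0.148, limma adjusted p = 0.031), to 62.6% of Control. With each library scaled by its total reads Pxdn was not called, since its log2 fold-change was -0.45, although the limma adjusted p was 0.0441. Smoc1, a secreted relative of SPARC, was expressed at a low level, at 0.35, 0.95 and 0.67 against 0.07, -0.42 and -0.61 (log2 fold-change -0.98, 95% interval -1.70 to -0.25, limma adjusted p = 0.0835), and Smoc2 was lower still, at -2.39 to -0.84 over the 6 libraries.

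None of the laminin chains was called. Of the 11 chains in the table, 9 had a mean log2 CPM above 1, and the log2 fold-change was negative for each of the 9 (5200 of 10529 genes in all), between -1.23 (Lama4) and -0.29 (Lamb2). The groups did not overlap in 3 of the 9, all of them lower in Celf1cKO lenses (16.9% of all genes). Celf1cKO 2 was the lowest library in 8 (21.1% of all genes). At an unadjusted p under 0.05 the limma count was 4 of the 9, against 33.9% of all genes. The chains of laminin-111, Lama1, Lamb1 and Lamc1, were the most abundant of their kind per kb, at 18.3, 29.3 and 22.5 CPM per kb in Control. Lama1 measured 7.59, 7.30 and 7.51 in Control and 7.19, 6.35 and 6.60 in Celf1cKO lenses, without overlap (log2 fold-change -0.76, SE 0.206, limma adjusted p = 0.056). Lamc1 measured 7.69, 7.37 and 7.55 against 7.46, 6.46 and 6.90 (-0.60, SE 0.233, limma adjusted p = 0.136). In both genes library Celf1cKO 1 was close to Control and Celf1cKO 2 was the lowest. Taking the replicate number as a block, limma gave an adjusted p of 0.0217 for Lama1 and 0.0408 for Lamc1, and both were then called reduced. No pairing by number is described in the labels or methods, and the block was inferred from residuals of these same data. Lamb1 had 8.41, 8.16 and 7.94 against 8.35, 7.24 and 7.58 (-0.45, 95% interval -1.08 to 0.18, limma adjusted p = 0.3), Lama5 a log2 fold-change of -0.40 (-0.85 to 0.04, limma adjusted p 0.203 without the block and 0.0269 with it, with the fold-change short of 0.58) and Lamb2 one of -0.29 (-0.74 to 0.15, limma adjusted p = 0.338). For Lamb1 and Lama5 the Celf1cKO 1 value lay within the Control range.

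Among linkers and proteoglycans, Nid1 and Hspg2 were by far the most abundant and differed the least between groups. Nid1, which encodes nidogen-1, measured 10.82, 10.82 and 10.78 in Control and 10.63, 10.21 and 10.29 in Celf1cKO lenses (log2 fold-change -0.43, SE 0.128, limma adjusted p = 0.0703). Hspg2, which encodes perlecan, measured 10.57, 10.41 and 10.51 against 10.30, 9.69 and 9.78 (-0.57, SE 0.164, limma adjusted p = 0.0635). Neither gene overlapped between groups, and neither passed. In the fit blocked by replicate number the limma adjusted p of Hspg2 was 0.0392, but its log2 fold-change stays short of 0.58. Agrn (agrin) and Col18a1 (the endostatin precursor) varied more among Control libraries, with Col18a1 at 6.62, 5.63 and 6.96 in Control and 6.26, 4.42 and 6.38 in Celf1cKO lenses. Replicate 2 was the lowest in both groups, and in the fit blocked by replicate number Col18a1 (log2 fold-change -0.71, limma adjusted p 0.421 without the block and 0.0408 with it) and Agrn (-0.70, 0.311 and 0.0488) were called reduced. Col15a1, a proteoglycan collagen of vessels and muscle, measured 4.22, 3.84 and 3.80 against 3.43, 0.43 and 2.90. Its log2 fold-change of -1.70 had a 95% interval of -3.34 to -0.07 (limma adjusted p = 0.152). Nid2 measured 4.10, 3.38 and 3.70 against 3.94, 1.43 and 2.78 (-1.01, interval -2.33 to 0.32, limma adjusted p = 0.272). In both, Celf1cKO 2 lay far below all other libraries.

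**Figure D2:**
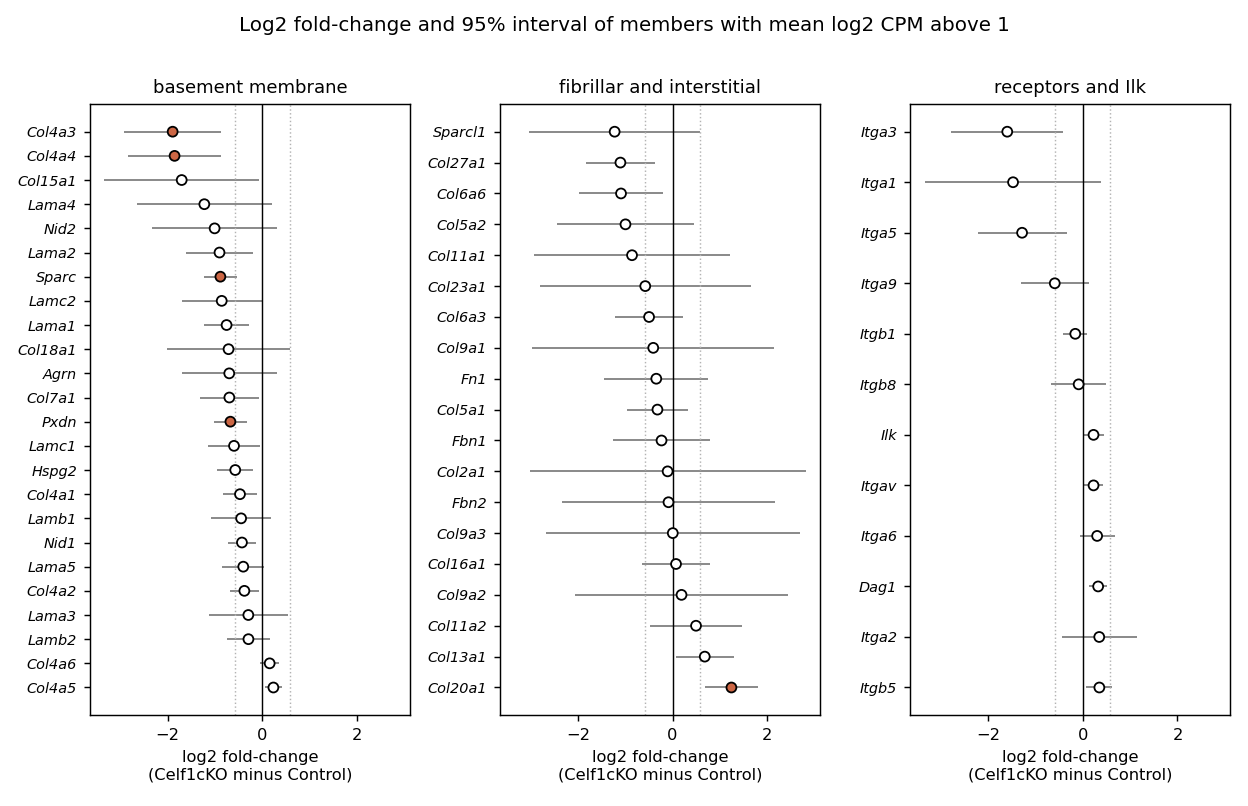
Log2 fold-change (Celf1cKO minus Control) with its 95% limma interval for the matrix and receptor genes with mean log2 CPM above 1, by class. Filled points are called genes (Col4a3, Col4a4, Sparc and Pxdn reduced, Col20a1 elevated), dotted lines mark -0.58 and 0.58, and in the basement membrane panel 22 of 24 points lie left of 0.

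Counted over the whole group, 57 of the 85 genes had a mean log2 CPM above 1. Of these, 4 were called reduced (3.38% of all such genes were) and 1 was called elevated (6.21%), so that the share called in either direction, 8.77%, was near the 9.59% of all genes. The reduced genes were all of the basement membrane class, in which 24 genes had a mean above 1. The fibrillar and interstitial class contributed the elevated gene among its 19, and no receptor among the 12 was called. At an unadjusted p under 0.05 the limma count was 15 of the 24, 4 of the 19 and 6 of the 12, against 33.9% of all genes. The difference was negative in 22 of the 24 basement membrane genes, with a median log2 fold-change of -0.69, against a median of -0.32 for the fibrillar and interstitial genes, 0.07 for the receptors and 0.006 for all 10529 genes. The number of negative differences was also 22 of 24 under quantile normalization, scaling by reads outside crystallin genes and scaling by total reads, with medians of -0.65, -0.71 and -0.46. The groups did not overlap in 15 of the 24 (40.1% of all genes). In 13 each Celf1cKO library was below each Control library (16.9% of all genes), and in 2, Col4a5 and Col4a6, each was above (23.2%). Summed per kb, basement membrane transcripts came to 1877 ± 82.3 CPM per kb in Control and 1330 ± 234 in Celf1cKO lenses (SD, n = 3), with ranges of 1790 to 1954 and 1145 to 1593. The fibrillar and interstitial genes summed to 57.8 ± 23.1 and 50.0 ± 22.2, and the receptor genes to 265 ± 21.6 and 289 ± 13.2, both with overlapping ranges.

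The calls depended on the libraries and on the variance model. Without the trend of variance with expression the limma adjusted p was 0.0509 for Sparc, 0.0774 for Pxdn, 0.0804 for Col4a3 and 0.076 for Col4a4, so that no basement membrane gene was called. Over all genes that fit gave 412 calls instead of 1010, and 113 of the 412 were reduced. In the fit blocked by replicate number, 12 of the 57 genes were called, 11 reduced (4.84% of all genes) and 1 elevated (7.08%), and the added ones were Agrn, Col18a1, Col27a1, Itga3, Itga5, Lama1 and Lamc1. Without Control 1, Control 2 or Celf1cKO 3 none of the 57 was called by limma, without Control 3 or Celf1cKO 2 only Sparc was, and without Celf1cKO 1 the count was 19, 17 of them reduced. Over all genes the same omissions gave 588, 1, 1, 431, 429 and 1878 calls in that order. Whichever library was left out, the log2 fold-change of Col4a3 stayed between -2.40 and -1.57 and that of Col4a4 between -2.34 and -1.58. That of Sparc stayed between -1.04 and -0.78 and that of Pxdn between -0.80 and -0.55. The groups did not overlap in these genes, so leaving out a library could not turn their sign. In other genes of the group the sign did turn, among them Fbn2 (-0.96 to 0.75) and Fn1 (-0.81 to 0.12).

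Library Celf1cKO 2 was the lowest of the 6 in 33 of the 57 genes, 57.9%, against 21.1% of all genes, and in 18 of the 24 basement membrane genes. Summed markers of lens epithelium, vessel endothelium, pericytes and mesenchyme were also lowest in it, whereas those of lens fibers were not. Over 6 lens epithelium markers, of which Foxe3 and Pdgfra were called reduced, the sum was 518 to 594 CPM in Control and 435, 160 and 352 CPM in Celf1cKO 1, 2 and 3. Over 9 vessel endothelium markers it was 103 to 129 CPM in Control and 125, 23.8 and 59.2 CPM in Celf1cKO lenses, with none called by limma, and over 6 pericyte markers it was 114 to 139 CPM and 99.3, 23.6 and 63.5 CPM. Of 7 mesenchyme and fibroblast markers 3 were in the table (Prrx1, Pdgfrb and Postn), summing to 11.8 to 13.7 CPM and to 9.41, 2.696 and 7.19 CPM. Pdgfrb, which is also among the pericyte markers, was the most abundant of them in each library, so these sums are not independent. Prrx1 differed by 0.19 (limma adjusted p = 0.824), at -1.07 log2 CPM in Control 2 and -1.06 in Celf1cKO 2. Lens fiber markers summed to 24581 to 34352 CPM in Control and to 20755, 20669 and 19502 CPM in Celf1cKO 1, 2 and 3. Of these markers Bfsp1, Gja3 and Dnase2b were called reduced. The part of these cells in the matrix results was not tested, and in whole lenses fewer cells of a type and less RNA per cell cannot be told apart.

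Fibrillar and interstitial matrix genes were together expressed far below the basement membrane genes, at most 10.4 CPM per kb in Control (Sparcl1). For 16 of the 19 the groups overlapped, so that 15.8% were without overlap, against 40.1% of all genes. Col20a1, a collagen that associates with fibrils, was the only one called elevated. It measured 1.69, 1.51 and 1.85 log2 CPM in Control and 2.46, 3.18 and 3.14 in Celf1cKO lenses, from 104 to 437 reads per library, and each Celf1cKO library lay above each Control library. Col20a1 was elevated by 1.24 (SE 0.239, limma adjusted p = 0.0211), to 237% of Control. Col27a1, a fibrillar collagen of cartilage and epithelia, measured 3.14, 2.90 and 3.91 against 2.30, 1.80 and 2.55, again without overlap, and had a log2 fold-change of -1.10 (SE 0.309). Its limma adjusted p was 0.061, and 0.0196 in the fit blocked by replicate number, which called it reduced.

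The major collagens of connective tissue were scarce in these lenses. Col1a1, a chain of type I collagen, measured -1.19, -2.97 and 0.05 in Control and -0.84, -2.24 and -1.35 in Celf1cKO lenses, with 3 to 39 reads per library (log2 fold-change -0.11, 95% interval -1.94 to 1.72, limma adjusted p = 0.943). Col3a1, the type III chain, measured 0.82, -0.02 and 0.98 against 1.21, -1.49 and -0.65 (-0.91, interval -2.49 to 0.67, limma adjusted p = 0.399). Both were below the level at which a gene could be called. Fn1, which encodes fibronectin, stood at 5.16, 4.17 and 4.27 against 5.13, 3.27 and 4.17 (-0.34, interval -1.44 to 0.75, limma adjusted p = 0.661), with replicate 1 the highest in both groups. Fbn1, a fibrillin of elastic microfibrils, had 4.27, 3.34 and 4.52 against 3.98, 2.95 and 4.50 (-0.23, interval -1.26 to 0.79, limma adjusted p = 0.759), and 20.1% of its exon bases overlap an annotated antisense gene. Tnc, which encodes tenascin C, was at 1.25 in Celf1cKO 2 and between -1.54 and -0.14 elsewhere. Sparcl1, a relative of SPARC, measured 5.48, 4.62 and 4.53 against 5.47, 2.01 and 3.48, with a log2 fold-change of -1.22 and an interval of -3.03 to 0.59 (limma adjusted p = 0.326). Its low values again lay in Celf1cKO 2 and 3.

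A further set followed the replicate number and not the genotype. Col9a1, a collagen of cartilage, vitreous and retina, measured 5.97, 3.37 and 6.18 in Control and 5.07, 2.59 and 6.63 in Celf1cKO lenses. Col2a1, the main collagen of cartilage and vitreous, measured 3.21, -0.02 and 4.21 against 2.66, 0.33 and 4.10. Fbn2, a fibrillin of the developing eye, measured 5.41, 3.30 and 6.08 against 4.77, 3.17 and 6.59. In all of them replicate 2 of both groups was the lowest and replicate 3 the highest, with log2 fold-changes of -0.41, -0.10 and -0.09 whose 95% intervals spanned 0 widely (limma adjusted p = 0.836, 0.965 and 0.963). Summed, 6 retina, iris and pigment cell markers gave 6.74, 2.58 and 20.2 CPM in Control and 5.47, 9.55 and 21.3 CPM in Celf1cKO lenses, and their part in the collagen values was not tested. The Col9a1, Col9a2, Col9a3, Col2a1 and Col11a1 group was singled out after its values were seen.

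**Figure D3:**
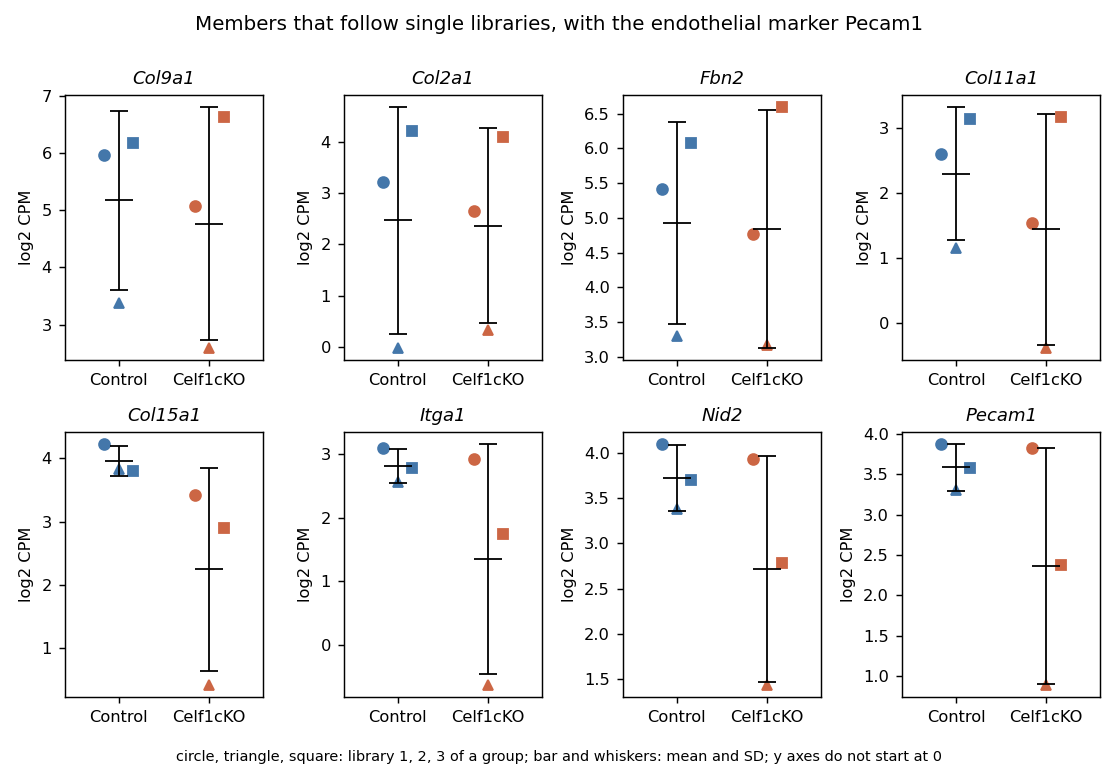
Log2 CPM by library of genes whose values were set apart by single libraries, with the group mean and SD. In the upper row Col9a1, Col2a1, Fbn2 and Col11a1 are lowest in library 2 of both groups (for Col9a1 3.37 and 2.59), and in the lower row Col15a1, Itga1, Nid2 and the endothelial marker Pecam1 are lowest in Celf1cKO 2 (for Col15a1 0.43).

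Receptor transcripts differed little between the groups where they were abundant. Per kb, the integrin subunits Itgb1 (89.6 CPM per kb in Control), Itgb5 (57.0) and Itga6 (26.9) led, with dystroglycan (Dag1) at 27.1. Itgb1, the common beta subunit of matrix-binding integrins, measured 8.56, 8.64 and 8.33 in Control and 8.48, 8.28 and 8.29 in Celf1cKO lenses. The groups overlapped, with a log2 fold-change of -0.16 (95% interval -0.41 to 0.09, limma adjusted p = 0.362). Itga6, whose product pairs with the Itgb1 product to bind laminin, measured 7.87, 8.20 and 7.66 against 7.99, 8.39 and 8.26 (0.30, interval -0.07 to 0.68, limma adjusted p = 0.242). The Celf1cKO library of each number was the higher one here, although the groups overlapped.

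Dag1, which encodes the laminin receptor dystroglycan, measured 7.46, 7.42 and 7.41 in Control and 7.65, 7.80 and 7.81 in Celf1cKO lenses. It passed limma's test on the adjusted p alone (adjusted p = 0.0413), with a log2 fold-change of 0.33 (SE 0.0792) that fell short of 0.58, so it was not called. On the adjusted p alone 6 of the 57 genes passed (14.5% of all genes did), the reduced ones the same 4 (4.7%) and the elevated ones Col20a1 and Dag1 (9.83%). In the fit blocked by replicate number the limma adjusted p of Dag1 was 0.0528. Itgb5, which pairs with Itgav to bind vitronectin, measured 7.73, 7.68 and 7.57 against 7.81, 8.22 and 8.003 (0.35, interval 0.08 to 0.62, limma adjusted p = 0.0922). Itgav had 6.57, 6.74 and 6.75 against 6.93, 6.89 and 6.92 (0.23, interval 0.04 to 0.42, limma adjusted p = 0.112). For Dag1, Itgb5 and Itgav alike each Celf1cKO library was above each Control library. Ilk, the kinase that links integrin tails to actin, lay at 6.54, 6.66 and 6.43 against 6.66, 6.78 and 6.88 (0.23, interval 0.00 to 0.45, limma adjusted p = 0.161), but 89.7% of its exon bases overlap Rrp8 or Taf10 on the opposite strand. Scaled by total reads, Itga6 (0.53, limma adjusted p = 0.041), Itgav (0.46, 0.0103), Itgb5 (0.578, 0.0166) and Ilk (0.45, 0.0157) passed on the adjusted p, with none past a log2 fold-change of 0.58. That scaling raised the median log2 fold-change of all genes from 0.006 to 0.23, so part of each value is shared by the whole table.

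A few receptor genes of low or middle level lay the other way. Itga3, which encodes the alpha subunit of another laminin-binding integrin, measured 5.42, 5.39 and 5.36 in Control and 4.85, 2.53 and 4.01 in Celf1cKO lenses, with a log2 fold-change of -1.59 (SE 0.507). Itga5, the alpha subunit of the fibronectin receptor, measured 2.99, 2.24 and 3.15 against 2.03, 0.69 and 1.83, with a log2 fold-change of -1.28 (SE 0.402). Neither gene overlapped between the groups, and Celf1cKO 2 was the lowest library for both. Their limma adjusted p was 0.0837 and 0.081, and 0.0488 and 0.0196 in the fit blocked by replicate number, which called both reduced. Itga1, a collagen-binding subunit, measured 3.10, 2.56 and 2.79 against 2.93, -0.64 and 1.74 (-1.47, interval -3.33 to 0.39, limma adjusted p = 0.256), whereas its neighbour on chromosome 13, Itga2, had a log2 fold-change of 0.35 (interval -0.45 to 1.15, limma adjusted p = 0.526). These genes are 20995 bases apart and both encode collagen-binding subunits.

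**Figure D4:**
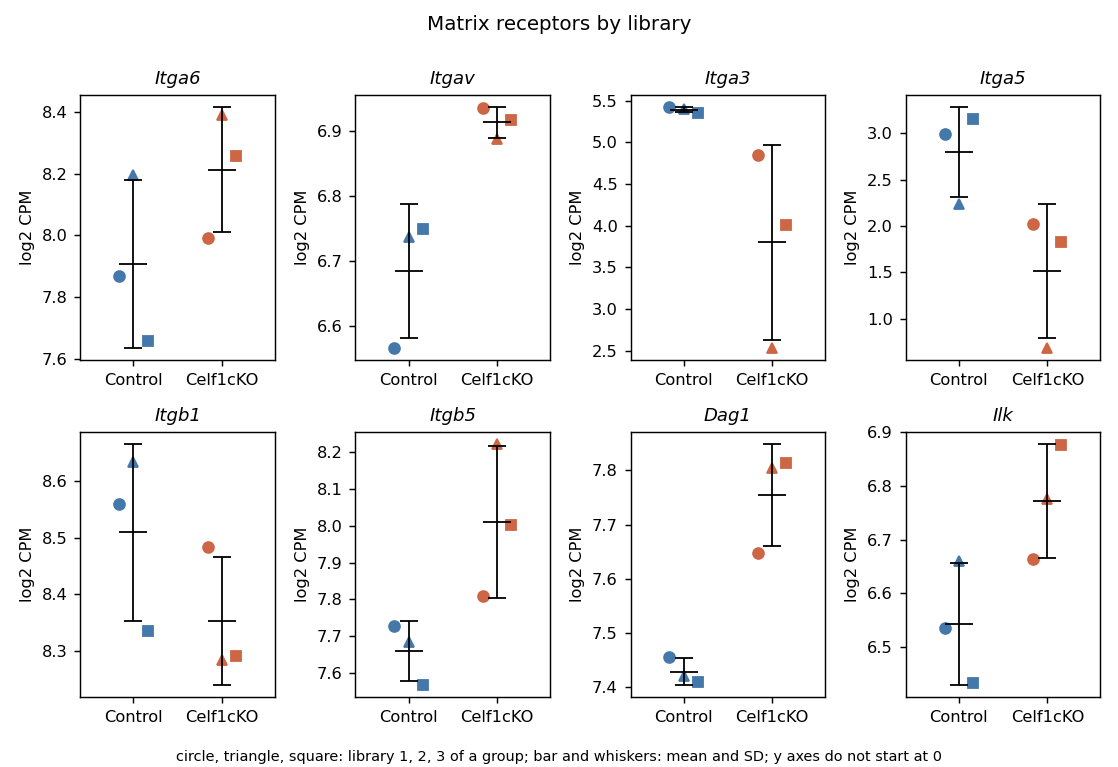
Log2 CPM of 8 receptor genes, Ilk included, in each library, with the group mean and SD. Itga6, Itgav, Itgb5, Dag1 and Ilk have the higher mean in Celf1cKO lenses (log2 fold-changes 0.30, 0.23, 0.35, 0.33 and 0.23), Itgb1 differs by -0.16, and Itga3 and Itga5 are lowest in Celf1cKO 2.

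Genes that work beside these proteins were examined as a list of 110 collagen-processing enzymes, adhesion adaptors, other matrix receptors, matrix-degrading enzymes with their inhibitors, and other basement membrane components, of which 87 had a mean log2 CPM above 1 and 14 a lower one. Of the 87, 3 were called reduced and 4 elevated, 8.05% in all and so near the 9.59% of all genes, and the median log2 fold-change was -0.17. In the fit blocked by replicate number, limma called 11 of the 87 reduced (4.84% of all genes) and 4 elevated (7.08%). Leaving out 1 library gave 0 calls without Control 2 or Celf1cKO 3, 1 without Control 3, 2 without Control 1, 5 without Celf1cKO 2 and 25 without Celf1cKO 1. Over all genes the same omissions gave 1, 1, 431, 588, 429 and 1878 calls in that order.

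Among collagen-processing enzymes, 1 of 24 was reduced (3.38% of all genes) and 2 were elevated (6.21% of all genes). Loxl1, a lysyl oxidase that cross-links collagen and elastin, measured 6.77, 6.90 and 6.88 in Control and 6.36, 5.72 and 6.03 in Celf1cKO lenses, and was reduced by -0.82 (SE 0.156, limma adjusted p = 0.0208). P4hb, the protein disulfide isomerase that is also the beta subunit of prolyl 4-hydroxylase, measured 7.21, 6.95 and 6.84 against 7.59, 7.68 and 7.70, and was elevated by 0.66 (SE 0.107, limma adjusted p = 0.015). Crtap, a partner in prolyl 3-hydroxylation, measured 4.08, 4.01 and 4.18 against 4.41, 4.79 and 4.89, and was elevated by 0.60 (SE 0.146, limma adjusted p = 0.04). Its log2 fold-change fell short of 0.58 with log2(CPM + 1) (0.579) and with quantile normalization (0.57), as did that of P4hb with quantile normalization (0.576). Without the variance trend Loxl1, P4hb and Crtap all lost their calls (limma adjusted p = 0.062, 0.0526 and 0.0779). The prolyl hydroxylases P4ha3 (log2 fold-change -1.52, limma adjusted p = 0.058) and P3h2 (-1.27, 0.0676) were not called without the block, and passed with it (0.0484 and 0.0413). P3h2 measured 5.71, 5.72 and 5.61 against 5.36, 3.73 and 4.14, and its product modifies collagen IV.

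Of the enzymes and inhibitors of matrix turnover, 1 of 17 was reduced (3.38% of all genes) and 1 elevated (6.21% of all genes). Timp2, a secreted inhibitor of matrix metalloproteinases, measured 6.73, 6.47 and 6.83 in Control and 7.67, 8.03 and 8.03 in Celf1cKO lenses, and was elevated by 1.24 (SE 0.136, limma adjusted p = 0.00888). The membrane-bound metalloproteinase gene Mmp15 measured 2.75, 2.37 and 3.05 against 1.42, 1.13 and 1.87, and was reduced by -1.25 (SE 0.268, limma adjusted p = 0.029). Neither gene overlapped between groups. Mmp14, of the same protease family, was lowest in Celf1cKO 2, at 3.82, 3.08 and 4.14 against 3.06, 0.61 and 3.02 (-1.45, interval -2.98 to 0.07, limma adjusted p = 0.183, and 0.0395 with the block).

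Among the other matrix receptors, 1 of 14 was called (9.59% of all genes were). Sdc1, a cell-surface heparan sulfate proteoglycan, measured 5.74, 6.08 and 5.77 in Control and 6.44, 6.81 and 6.70 in Celf1cKO lenses, and was elevated by 0.79 (SE 0.134, limma adjusted p = 0.0162). Sgce, a sarcoglycan, had a log2 fold-change of -0.86 (limma adjusted p = 0.256). Of 15 adhesion adaptors 1 was called (9.59% of all genes were), namely Lims1, whose product binds integrin-linked kinase. It measured 5.59, 5.63 and 6.12 against 5.32, 4.95 and 5.07, and was reduced by -0.67 (SE 0.167, limma adjusted p = 0.0445). Lims1 lost this call when libraries were scaled by reads outside crystallin genes (-0.69, limma adjusted p = 0.0537) or by total reads (-0.44, 0.116). The tensins Tns1 (-1.19, limma adjusted p = 0.278) and Tns2 (-1.38, 0.227) were lowest in Celf1cKO 2. None of 17 other basement membrane genes was called by limma, and 6 had an unadjusted p under 0.05, a share near the 33.9% of all genes. In the blocked fit 3 were called reduced (4.84% of all genes), namely Fbln2, Tinagl1 and Bgn, the first and second of them named after their values were seen. Bgn (biglycan, log2 fold-change -2.04, limma adjusted p 0.0788 without the block and 0.0411 with it) and Vwa1 (-1.79, 0.213 without it) had the largest differences, and Celf1cKO 2 was again the lowest library for both.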

How the data were processed

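Per the file headers, the authors deposited log2 CPM per gene and library, normalized with edgeR. The submitters' processing notes name STAR 2.7.8a, featureCounts 2.0.0 and GRCm38.p6, and the authors kept uniquely mapped reads and genes above a low CPM. The same table holds their fold-change, F statistic, p-value, FDR and group means, which were not used. Samples were grouped by their labels. The matrix genes, classes and lists were chosen with earlier results of these data known. Values were fitted with limma 3.58.1 (R 4.3.3), with a variance trend and no covariate, over all genes. The procedure was tested on simulated data.

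Reads were recovered from the steps of the values, and 100% were whole within 0.1 read. A floor of 3 reads is 0.0609 to 0.0807 CPM, and covers counting error only. Residuals of libraries sharing a number correlated at 0.332, 0.415 and 0.334 (other pairs -0.352 to 0.016). For each gene the residuals of a group cancel out, so positive correlations within a number lower those of the other pairs. From these correlations the numbers were taken to pair the samples and were used as a block in an alternative fit. The labels and methods describe no pairing.

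Genes were named where they had an adjusted p under 0.05, where they were the 3 with the largest log2 fold-change of a class (2 of each further list), or where they belonged to a fixed set of capsule genes. Positions, exon lengths and exon overlaps came from GENCODE M21 and promoters from RefSeq. Col4a3 was not in the promoter table used here. A marker gene of the retina list is not reported here. Alternatives covered the block, the variance trend, the prior count, filters, thresholds, scaling, limma voom and each library left out. Figures were drawn with matplotlib 3.10.9.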

Additional observations from a re-analysis of the deposited data

How the results depend on the processing

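The count of called genes was 5 for all matrix and receptor genes, 4 for the basement membrane, 1 for the fibrillar and interstitial class, 0 for the receptors and 7 for the further adhesion and matrix list. In the fit blocked by replicate number these became 12, 8, 2, 2 and 15. Without the variance trend they were 1, 0, 1, 0 and 1, with Col20a1 the gene that passed among the 57. Calls over all genes fell from 1010 to 412 in that fit. On the adjusted p alone the receptor count was 1 (Dag1). Fitting expressed genes only, quantile normalization, log2(CPM + 1), scaling by reads outside crystallin genes and limma voom each kept the 5 called genes, the first and second also calling Lama1, and scaling by total reads kept 4, losing Pxdn. That scaling raised the median log2 fold-change to 0.23 and the elevated share of all calls from 64.8% to 89.3%. With each library left out the counts ranged from 0 to 19, 0 to 13, 0 to 3, 0 to 3 and 0 to 25, the highest of each without Celf1cKO 1.

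Signs turned with quantile normalization for Col1a1 (0.18) and Col2a1 (0.0216), and with total reads for Fbn2 (0.14), Col1a1 (0.0748), Col2a1 (0.12) and Itgb1 (0.0696). With a library left out, the log2 fold-change crossed 0 for Fbn2 (-0.96 to 0.75), Col2a1 (-1.35 to 0.91), Smoc2 (-0.30 to 0.48), Fbn1 (-0.58 to 0.20), Col1a1 (-0.91 to 0.60), Fn1 (-0.81 to 0.12) and Tnc (-0.26 to 1.03). None of these was called. The cause of these shifts was not tested. Genes with few reads, such as Col1a1 with 3 in 1 library, are limited by depth.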
